A study of Homo sapiens with 6 samples.

Results

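Small nucleolar RNAs (snoRNAs) and small Cajal body RNAs (scaRNAs) were examined in RNA sequencing of an abiraterone-selected subline of C4-2B prostate cancer cells and of its parental line. Members were the genes whose symbol in the authors' deposited table starts with SNORD, SNORA or SCARNA. This rule found 53 of the 6018 genes in the table: 11 box C/D RNAs (SNORD), 35 box H/ACA RNAs (SNORA) and 7 Cajal body RNAs (SCARNA). All 53 had their symbol in the table itself. Genes with symbols starting with SNHG (small nucleolar RNA host gene), and GAS5, were set beside them.

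SnoRNAs are short, stable RNAs that lack a poly(A) tail and are mostly cut out of the introns of host genes. Box C/D RNAs guide the methylation of the ribose in ribosomal RNA and box H/ACA RNAs guide the conversion of uridine to pseudouridine. A few of them, such as U3 and U17, act instead in the cleavage of the precursor of ribosomal RNA in the nucleolus. ScaRNAs carry the same boxes, collect in Cajal bodies and guide the modification of the small nuclear RNAs of the spliceosome.

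C4-2B is an established human line derived from LNCaP prostate cancer cells by way of C4-2 and is able to grow without testicular androgen. The series holds 3 libraries of the abiraterone-selected subline (C42-B-Abi, passages 15 to 18) and 3 of parental C42B cells (passage 0). Abiraterone blocks androgen synthesis at CYP17A1; the subline was passaged for at least 6 months at 1 to 20 µM and then kept at 5 µM, and the parental cells were passaged beside it in 1% DMSO. Both grew in medium with 10% serum, and the wording of the RNA extraction step leaves unclear whether the 10 µM abiraterone named there was given to one line or to both. The labels name no separate cultures behind the libraries of a group, so the p-values rest on a spread between libraries that may be technical, and line and passage number cannot be told apart.

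The values come from a DESeq2 comparison that sets condition C over condition V, and the authors' deposited table holds no value for a single library. Depth per library is therefore unknown, and whether libraries of C and V overlap could not be seen. The table's header reads C as control and V as vehicle, while the titles of the parental libraries carry a V; which line is C is not settled by the header, so directions are named by these letters alone. The table is a selection: every gene in it has a p under 0.05, and the smallest absolute log2 fold change is 1.2. A member that is not listed may have missed either limit or may not have been among the genes the authors counted. Below, "called" means a listed adjusted p under 0.05, a value after ± is the listed standard error, and a derived level is the number of normalised counts in C or V computed from the listed mean and fold change with equally many libraries on each side. The luminal markers KLK3, KLK2 and KRT8 had derived levels of 15170, 2798 and 1364 in C and 3363, 466 and 3715 in V per the authors' deposited table, and the other 6 of the 9 luminal markers were not listed. Of 6 leukocyte markers 4 were listed and 3 called, all higher in V, with summed derived levels of 1.56 in C and 66.2 in V, and of 6 fibroblast markers COL1A1 alone was listed, at 72.4 in C and 294 in V, per the authors' deposited table; COL1A2, COL3A1, DCN, LUM and PDGFRA were not listed. The part of these cell type markers in the results below was not tested.

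Of the listed RNAs, 11 are shown because the results below turn on them. Sequences are the shortest transcript of each gene in GENCODE release 29 (GRCh38), matched by Ensembl identifier and written 5′ to 3′ as DNA. In the box C/D RNAs and the scaRNAs capitals mark TGATGA (the core of box C) within 20 bases of the 5′ end and CTGA (box D) within 20 bases of the 3′ end. In the box H/ACA RNAs capitals mark the last ACA within 8 bases of the 3′ end. The first set holds U3, the most abundant member, SNORD17, the longest listed box C/D RNA, and 2 short box C/D RNAs, SNORD126 and SNORD93, whose host genes were also listed.
SNORD3A (chr17:19188016-19188232, plus strand): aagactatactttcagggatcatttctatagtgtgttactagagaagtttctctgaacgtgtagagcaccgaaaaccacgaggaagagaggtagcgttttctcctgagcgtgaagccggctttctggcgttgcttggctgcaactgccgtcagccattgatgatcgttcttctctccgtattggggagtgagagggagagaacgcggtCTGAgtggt
SNORD17 (chr20:17962710-17962946, minus strand): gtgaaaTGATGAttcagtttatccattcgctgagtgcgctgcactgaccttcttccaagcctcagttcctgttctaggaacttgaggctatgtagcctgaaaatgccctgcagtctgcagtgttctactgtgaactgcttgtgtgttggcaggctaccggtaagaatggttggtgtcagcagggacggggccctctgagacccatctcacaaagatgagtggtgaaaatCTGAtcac
SNORD126 (chr14:20326450-20326526, minus strand): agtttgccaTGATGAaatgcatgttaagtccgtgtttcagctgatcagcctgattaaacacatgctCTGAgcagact
SNORD93 (chr7:22856613-22856686, plus strand): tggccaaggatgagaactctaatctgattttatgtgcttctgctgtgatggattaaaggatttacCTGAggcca

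The next set holds SNORA73B, the most abundant box H/ACA RNA, and pairs of related RNAs with different fold changes, SNORA80A beside SNORA80B and SNORA2A beside SNORA2C.
SNORA73B (chr1:28508559-28508762, plus strand): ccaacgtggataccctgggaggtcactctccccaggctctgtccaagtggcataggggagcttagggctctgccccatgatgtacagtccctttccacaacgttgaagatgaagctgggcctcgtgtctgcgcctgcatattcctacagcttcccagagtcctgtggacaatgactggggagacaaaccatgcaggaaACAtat
SNORA80A (chr21:32377187-32377322, minus strand): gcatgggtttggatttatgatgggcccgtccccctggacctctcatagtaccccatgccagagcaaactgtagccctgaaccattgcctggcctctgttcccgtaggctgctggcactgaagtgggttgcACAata
SNORA80B (chr2:10446714-10446849, minus strand): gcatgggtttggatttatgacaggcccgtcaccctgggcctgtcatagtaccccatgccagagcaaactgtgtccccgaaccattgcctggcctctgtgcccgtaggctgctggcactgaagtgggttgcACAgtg
SNORA2A (chr12:48656648-48656782, minus strand): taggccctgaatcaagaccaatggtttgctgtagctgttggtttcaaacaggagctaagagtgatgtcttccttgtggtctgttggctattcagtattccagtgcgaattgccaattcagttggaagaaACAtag
SNORA2C (chr12:48654382-48654518, minus strand): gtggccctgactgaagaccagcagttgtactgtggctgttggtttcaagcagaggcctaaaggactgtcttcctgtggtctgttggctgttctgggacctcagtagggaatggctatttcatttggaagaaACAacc

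The last set holds the 2 scaRNAs that lie in introns of the same gene, ATG16L1.
SCARNA5 (chr2:233275727-233276002, plus strand): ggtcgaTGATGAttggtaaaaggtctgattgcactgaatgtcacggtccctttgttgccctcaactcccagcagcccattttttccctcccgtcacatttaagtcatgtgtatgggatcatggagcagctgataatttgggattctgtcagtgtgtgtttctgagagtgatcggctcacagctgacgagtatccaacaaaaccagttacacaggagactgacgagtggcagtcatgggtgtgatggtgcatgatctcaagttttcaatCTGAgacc
SCARNA6 (chr2:233288676-233288940, plus strand): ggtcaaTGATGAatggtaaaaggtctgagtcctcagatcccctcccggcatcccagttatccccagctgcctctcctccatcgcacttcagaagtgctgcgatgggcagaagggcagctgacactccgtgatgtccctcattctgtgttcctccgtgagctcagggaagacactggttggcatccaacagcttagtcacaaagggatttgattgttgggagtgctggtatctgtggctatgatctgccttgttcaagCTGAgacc

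Only the RNA's own strand was searched for these letters, and the windows for TGATGA and CTGA lie at opposite ends of each RNA. TGATGA was found near the 5′ end of 6 of the 11 listed box C/D RNAs, against 192 of all 278 annotated (69.1%), and of 1 of 147 annotated box H/ACA RNAs. CTGA was found near the 3′ end of all 11 listed box C/D RNAs, against 268 of 278 annotated (96.4%). It was also found there in 13 of 147 annotated box H/ACA RNAs (8.84%) and in 5 of the 34 listed ones with a sequence (14.7%). ACA was found near the 3′ end of 33 of the 34 listed box H/ACA RNAs whose listed identifier is in the release, against 134 of 147 annotated (91.2%). Of annotated box C/D RNAs 14 of 278 had it (5.04%), and of the 11 listed ones 0. In SNORD3A the letters TGATGA lie outside the window that was searched. Among the 7 listed scaRNAs, 4 had both TGATGA and CTGA in their windows and the other 3 had ACA.

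All 50 called members had more in C, and 0 had more in V. They comprised 10 of the 11 listed box C/D RNAs, 33 of the 35 box H/ACA RNAs and 7 of the 7 Cajal body RNAs. Called genes made up 89.4% of the whole table, with 46.0% called and higher in C, and 43.4% on the V side; among listed genes that are not protein-coding, 60.1% were called higher in C, and among protein-coding ones 31.6%. The members' median log2 fold change was 2.60 among the called. Among called genes on the C side it was 2.30 over all types and 2.70 over types that are not protein-coding, so the members' median lay between these values. The 3 listed members that were not called also had positive fold changes per the authors' deposited table: SNORA20 (2.49 ± 1.203, adjusted p = 0.0815), SNORA37 (1.72 ± 0.80, adjusted p = 0.0707) and SNORD48 (2.29 ± 1.16, adjusted p = 0.0987), the last a box C/D RNA often used to scale small RNA assays. The labels name a kit for mRNA and another for stranded total RNA and tie neither to a library, and the part of library preparation in the members' direction was not tested. Since cultures were measured in bulk, fewer cells with an RNA and less of it per cell cannot be told apart.

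The fold changes of the 3 classes overlapped. The median log2 fold change was 2.65 for box C/D RNAs (range 1.37 to 4.68), 2.47 for box H/ACA RNAs (1.30 to 5.74) and 2.90 for Cajal body RNAs (1.498 to 4.48). The median standard errors were 0.45, 0.50 and 0.34 in the same order of classes, and the order of the classes was not tested. Weighting each member by the inverse square of its standard error gave 2.52, 2.61 and 2.53. The classes differed in how many of their genes the table holds: 11 of 314 SNORD identifiers in the gene name table (3.503%), 35 of 214 SNORA identifiers (16.4%) and 7 of 25 SCARNA identifiers (28.0%). Annotated box C/D RNAs include the many copies of SNORD113, SNORD114, SNORD115 and SNORD116, none of which was listed, and their part in the SNORD share was not tested. Over all 3 classes the share was 53 of 553 (9.58%), against 6018 of 62700 for all genes (9.60%).

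**Figure D1:**
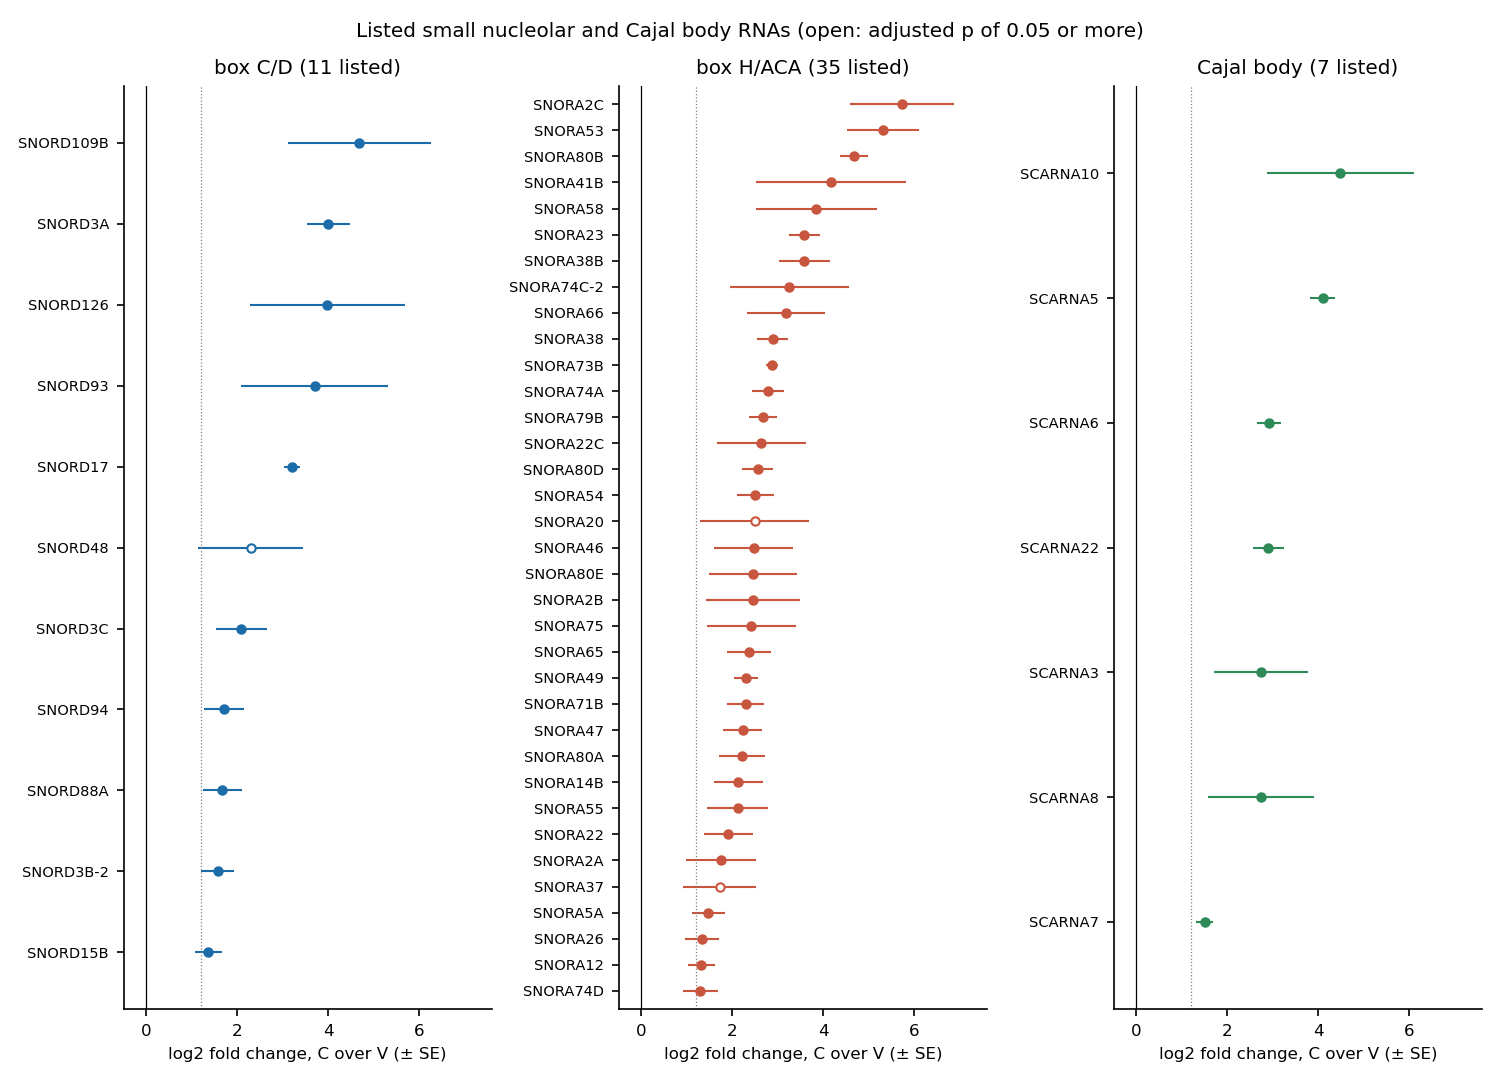
Log2 fold change of C over V (x axis) for each of the 53 listed members, by class, with the listed standard error as bars; filled points are called, open points have an adjusted p of 0.05 or more, the solid line marks 0 and the dotted line 1.2. Every point lies to the right of the dotted line, where the table's selection begins, from 1.30 for SNORA74D to 5.74 for SNORA2C.

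Many members had few reads behind them. The listed mean was under 10 normalised counts for 19 of the 53 members and at least 100 for 9. For 11 of the 50 called members the derived level in V was under 1, so the size of their fold change is poorly determined; they include SNORD109B, SNORD126, SNORD93, SCARNA10, SNORA41B and SNORA58. For 27 of the 50 the 95% interval of the log2 fold change, taken as the listed value ± 1.96 standard errors, lay wholly above 1.

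**Figure D2:**
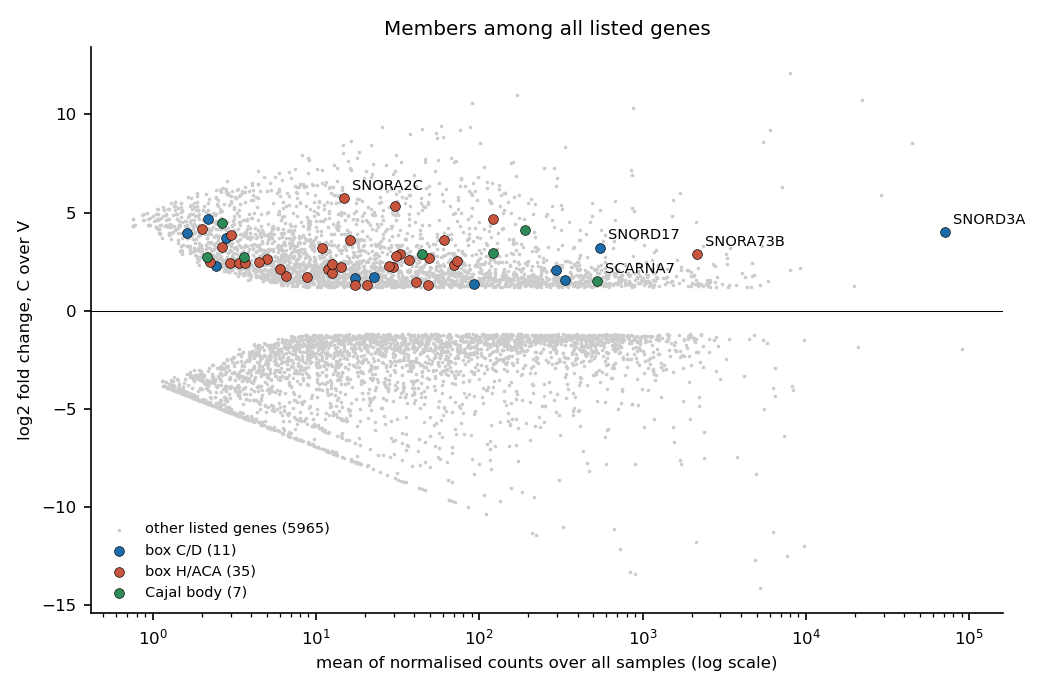
Log2 fold change of C over V (y axis) against the listed mean of normalised counts on a log scale (x axis), for the 53 members in colour and the other 5965 listed genes in grey; the empty band around 0 is the table's selection. The members all lie above that band, from a mean of 1.63 for SNORD126 to 71134 for SNORD3A.

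Among box C/D RNAs, U3 stood out by its amount. U3 is encoded by several near-identical SNORD3 genes on chromosome 17, is transcribed from its own promoters and is needed for the first cleavages on the way to 18S ribosomal RNA. The derived level of SNORD3A was 133917 in C and 8351 in V, from a listed mean of 71134 and a log2 fold change of 4.00 ± 0.47 per the authors' deposited table (adjusted p = 2.05e-16). It had the second largest mean of all listed genes and held 9.38% of the summed derived levels of the table in C and 0.587% in V. The copies SNORD3B-2 (1.57 ± 0.36) and SNORD3C (2.09 ± 0.56) had derived levels of 499 and 481 in C and of 168 and 113 in V per the authors' deposited table.

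Reads cannot be divided with certainty among the U3 copies. Their 217-base transcripts were 99.1 to 99.5% identical in pairs, with identical runs of up to 139 bases, longer than the 50-base reads. Of all 50-base windows of SNORD3A, 88.1% also occur in a transcript of another gene of the release, and the share was 100% for SNORD3B-2 and 70.2% for SNORD3C. The standard errors of these genes were also wide for their means: per the authors' deposited table that of SNORD3A, 0.47, exceeded those of 237 of the 250 called genes with a mean of at least 1000 (94.8%), whose median was 0.0858. For SNORD3C the listed 0.56 exceeded 96.0% of the 1335 called genes with a mean from 100 to 1000, and for SNORD3B-2 the listed 0.36 exceeded 91.8% of them per the authors' deposited table. What varied between libraries cannot be seen without values per library.

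SNORD17, which guides methylation of 28S ribosomal RNA, was the best determined of the other box C/D RNAs. It had a derived level of 984 in C, against 107 in V (3.21 ± 0.18, adjusted p = 5.96e-71, per the authors' deposited table). Its fold was 9.24, and none of its 50-base windows occur in another gene of the release. SNORD15B, a box C/D RNA in an intron of the ribosomal protein gene RPS3, had derived levels of 134 in C and 52.1 in V (1.37 ± 0.30, adjusted p = 3.03e-05, per the authors' deposited table). SNORD94, which guides a methylation of the U6 small nuclear RNA, had 34.6 in C and 10.6 in V (1.71 ± 0.43), and SNORD88A had 26.6 in C and 8.35 in V (1.67 ± 0.43), as derived from the authors' deposited table. The remaining 3 called box C/D RNAs were SNORD109B (4.68 ± 1.57), from the imprinted SNHG14 locus, SNORD126 (3.98 ± 1.71) and SNORD93 (3.70 ± 1.61) per the authors' deposited table. All 3 had derived levels of 3.07 to 5.25 in C and under 1 in V. Every window of SNORD109B also occurs in its sister gene SNORD109A.

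**Figure D3:**
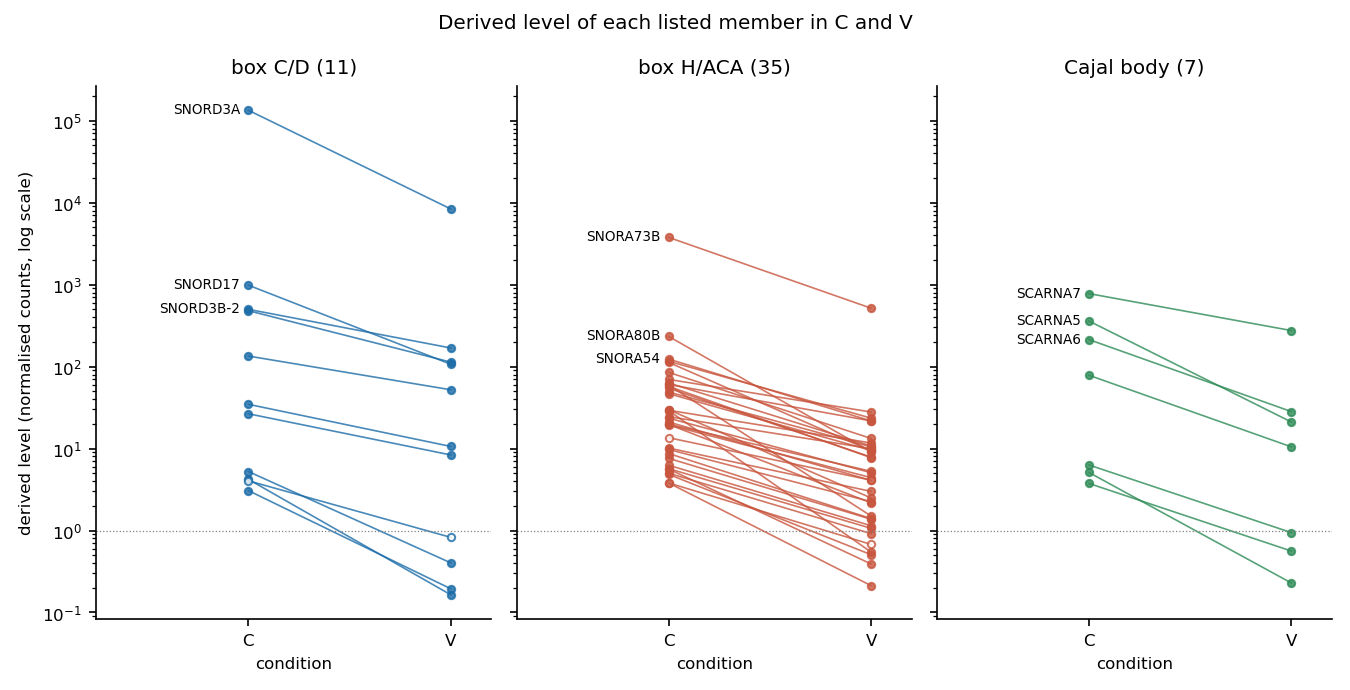
Derived level in normalised counts (y axis, log scale) of each listed member in C (left) and V (right), with a line joining the values of a member; the 3 highest of each class are named, open points are members that were not called, and the dotted line marks 1. All lines fall to the right, from 133917 in C and 8351 in V for SNORD3A to members whose level in V lies under the dotted line.

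Box H/ACA RNAs made up most of the list. SNORA73B, also known as U17b and used like U3 in cleaving the ribosomal RNA precursor, had a derived level of 3766 in C and 515 in V (2.87 ± 0.13, adjusted p = 3.45e-102, per the authors' deposited table). It was the member with the smallest p. Only 3.23% of its 50-base windows occur in another gene of the release. The genes concerned are its listed host SNHG3 and its sister SNORA73A, which was not listed. Per 100 bases of transcript the derived level was 1846 in C and 252 in V, and for SNORD3A it was 61713 in C and 3848 in V.

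The next of the class by p was SNORA80B, in an intron of ODC1, the first enzyme of polyamine synthesis. It had derived levels of 233 in C and 9.14 in V, a fold of 25.5 (4.67 ± 0.31, adjusted p = 4.84e-49, per the authors' deposited table). SNORA23, in the nuclear import receptor gene IPO7, had derived levels of 112 in C and 9.36 in V (3.59 ± 0.35, adjusted p = 6.87e-24, per the authors' deposited table). SNORA49, in the chromatin remodeller gene EP400, had 116 in C and 23.5 in V (2.31 ± 0.26, adjusted p = 5.49e-18, per the authors' deposited table). SNORA54 had 123 in C and 21.7 in V (2.51 ± 0.42), SNORA79B had 85.0 in C and 13.3 in V (2.68 ± 0.30), and SNORA38 had 57.3 in C and 7.73 in V (2.89 ± 0.34), as derived from the authors' deposited table. Thus the 7 box H/ACA RNAs that led by p or by level each had a derived level in C between 4.95 and 25.5 times that in V.

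The largest fold changes among box H/ACA RNAs were those of SNORA2C and SNORA53. SNORA2C had derived levels of 29.04 in C and 0.545 in V (5.74 ± 1.15), and SNORA53 had 59.7 in C and 1.499 in V (5.32 ± 0.80), as derived from the authors' deposited table. SNORA53 overlaps an exon of its host SLC25A3, the mitochondrial phosphate carrier, so its reads and those of the host cannot be told apart with certainty. A share of 29.5% of the windows of SNORA2C also occurs in MIR1291, a microRNA gene annotated inside it. At the other end SNORA74D (1.30 ± 0.39), SNORA12 (1.32 ± 0.30), SNORA26 (1.33 ± 0.37) and SNORA5A (1.48 ± 0.36) had the smallest called fold changes of the class per the authors' deposited table, close to the limit at which genes enter it.

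A further 6 box H/ACA RNAs, picked after their values were seen for the roles of their hosts, lie in introns of genes for the ribosome, translation, the nucleolus or mitochondrial import, and in ZBED3. SNORA65, in the ribosomal protein gene RPL12, had derived levels of 21.1 in C and 4.08 in V (2.37 ± 0.49, adjusted p = 5.71e-06, per the authors' deposited table). SNORA66, in RPL5, had 19.7 in C and 2.17 in V (3.18 ± 0.86, adjusted p = 0.000795), and SNORA55, in the poly(A)-binding protein gene PABPC4, had 9.74 in C and 2.25 in V (2.12 ± 0.66, adjusted p = 0.00425), as derived from the authors' deposited table. SNORA75, in the nucleolin gene NCL, had 5.68 in C and 1.06 in V (2.42 ± 0.98, adjusted p = 0.0319, per the authors' deposited table). SNORA47, in ZBED3, and SNORA14B, in the mitochondrial import gene TOMM20, had 49.0 and 19.4 in C, against 10.5 and 4.41 in V, as derived from the authors' deposited table. For these 6 RNAs the derived level in C was between 4.34 and 9.06 times that in V. That range describes this pick alone and no class of hosts. SNORA58, in MRPL3 (3.85 ± 1.34), and SNORA38B, in NOL11 (3.58 ± 0.56), were not picked and lay above it, per the authors' deposited table. SNORA80A, in URB1, and SNORA80D, in AIMP2, were not picked either and lay within it. RPL12 is the only one of the 6 host genes of the pick that was listed (1.68 ± 0.07, per the authors' deposited table).

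Related copies of a box H/ACA RNA in different host genes did not all have the same fold change. The SNORA80 copies in URB1, ODC1, AIMP2 and KHDC4 share 75.5 to 91.9% of their bases in pairs, with identical runs of at most 34 bases, so 50-base reads can separate them. By the authors' deposited table the log2 fold changes were 2.21 ± 0.50 for SNORA80A, 4.67 ± 0.31 for SNORA80B, 2.56 ± 0.35 for SNORA80D and 2.45 ± 0.97 for SNORA80E. The 95% interval of SNORA80B (4.06 to 5.29) does not overlap those of SNORA80A (1.23 to 3.20) and SNORA80D (1.87 to 3.24), while that of SNORA80E (0.55 to 4.35) overlaps all of them. These intervals are no test of the difference, which would need values per library. SNORA22 and SNORA22C, in the pseudogenes CCT6P1 and CCT6P3, are 98.5% identical with a shared run of 86 bases, and 43.5% of the 50-base windows of each also occur in another gene, so their values (1.91 ± 0.53 and 2.64 ± 0.98 per the authors' deposited table) are uncertain as to the copy. SNORA38 and SNORA38B are 85.1% identical with no identical run above 14 bases, and had 2.89 ± 0.34 and 3.58 ± 0.56 per the authors' deposited table.

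Cajal body RNAs were all called. SCARNA5 (U87) and SCARNA6 (U88), which carry both kinds of boxes, had derived levels of 359 and 213 in C, against 21.0 and 28.2 in V. The log2 fold changes were 4.09 ± 0.28 (adjusted p = 2.76e-48) and 2.92 ± 0.27 (adjusted p = 7.45e-27) per the authors' deposited table. SCARNA7 (U90), a box C/D guide for the U1 small nuclear RNA, was the most abundant of the class in both conditions, at 776 in C and 275 in V (1.498 ± 0.18, adjusted p = 3.13e-15, per the authors' deposited table). SCARNA22 had 78.3 in C and 10.5 in V (2.90 ± 0.34, adjusted p = 1.04e-16, per the authors' deposited table). SCARNA10 (U85, a guide for the U5 small nuclear RNA), SCARNA3 and SCARNA8 had means of at most 3.62, with 4.48 ± 1.62, 2.74 ± 1.03 and 2.74 ± 1.17 per the authors' deposited table and derived levels in V under 1. Of the 50-base windows of SCARNA10, 70.8% also occur in AC006064.5, so its reads may not all be its own. Per 100 bases the derived level in C ran from 1.55 for SCARNA10 to 235 for SCARNA7.

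Of the genes that contain a listed member, 22.9% were listed themselves, against 10.1% of all genes of the release and 14.8% of its protein-coding genes. The shares of the release also count genes that may not have been expressed in these cells. In GENCODE release 29, 49 of the 53 members lie inside another gene on the same strand. The U3 copies lie in none. The listed identifier of SNORA74C-2 is not in the release, which holds that symbol under another identifier, so its position was not used. Of the 48 containing genes 38 are protein-coding. In the authors' deposited table there were 11 of the 48, and all 11 were called and higher in C: NCAPD2, NSD2, CCT6P3, HMGN2P46, RPL12, RCC1, CCNB1IP1, C19orf48, SNHG3, SNHG4 and SNHG26. Of all listed genes 46.0% were called and higher in C, with 31.6% of protein-coding ones and 60.1% of other types. The other 37, among them ATG16L1, KANSL2, ODC1, RPS3, IPO7 and the nucleolin gene NCL, were not listed, so each missed p under 0.05 or an absolute log2 fold change of 1.2 or was not counted. Of the 49 members, 37 lie in no listed gene.

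Where host and member were both listed, the member had the larger fold change in 12 of 13 pairs. In 5 of these pairs the limit of p under 0.05 fixed that order for a member higher in C. At their standard errors SNORD126, SNORA41B, SCARNA10, SNORD93 and SNORA22C could be listed on the C side only with a fold change above that of the host. A member listed on the V side would have lain below its host, but all listed members had positive fold changes. In 7 of the other 8 pairs the member was larger, with a median difference of 1.23 on the log2 scale over the 8. There the limit of 1.2 on the absolute log2 fold change left members higher in C little room below hosts such as NSD2, SNHG3 and CCNB1IP1. Members that were not listed do not enter the count, and SNORA73B enters with both of its hosts. The count therefore does not show that members in general exceed their hosts. In 5 of these 8 pairs the 95% intervals of member and host do not overlap. SNORA73B (2.87 ± 0.13) lies inside both SNHG3 (1.25 ± 0.08) and RCC1 (1.65 ± 0.08), the gene of a nuclear exchange factor for Ran, and its interval lies above both per the authors' deposited table. SCARNA22 (2.90 ± 0.34) lies above NSD2 (1.23 ± 0.07), the gene of a histone methyltransferase, SNORA79B (2.68 ± 0.30) above CCNB1IP1 (1.34 ± 0.12) and SNORA74A (2.79 ± 0.35) above SNHG4 (1.55 ± 0.10) per the authors' deposited table. The exception was SNORA74D, at 1.30 ± 0.39 inside the same SNHG4. Host and member values come from the same libraries.

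**Figure D4:**
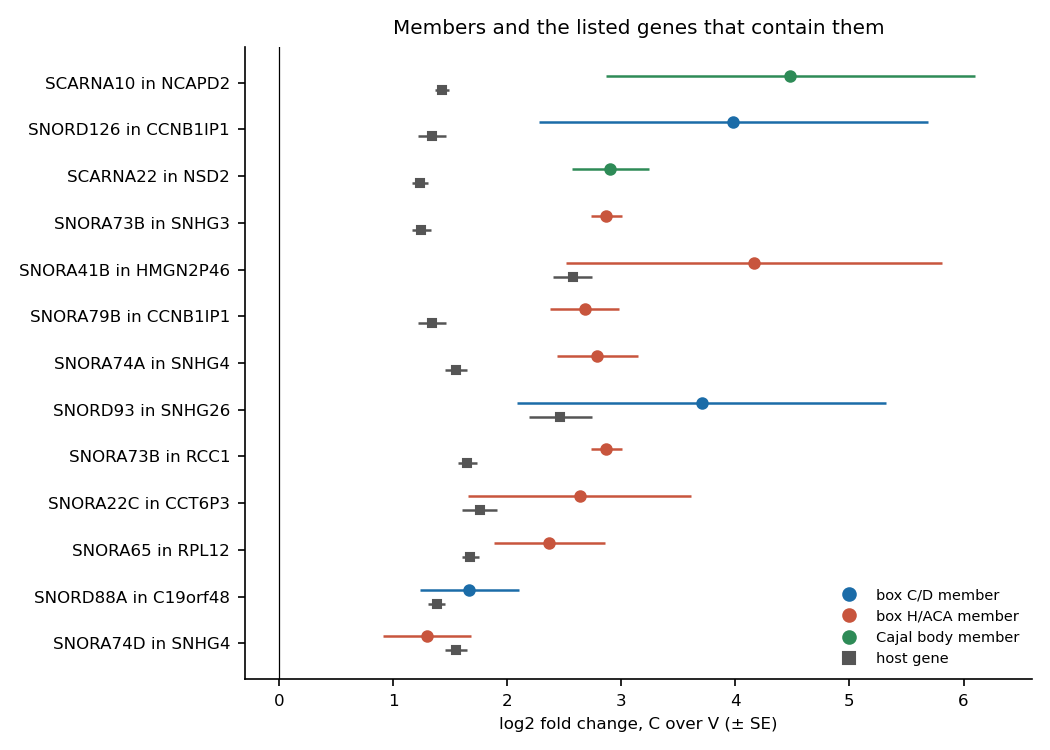
Log2 fold change of C over V (x axis) with its standard error for each member whose containing gene was listed (coloured circles) and for that gene (grey squares), 1 pair in each line, ordered by the difference. The circle lies to the right of the square in all pairs but SNORA74D in SNHG4. For SNORD126, SNORA41B, SCARNA10, SNORD93 and SNORA22C the table's limit on p left no other order for a member higher in C.

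Members that share a host did not always have like fold changes. There were 6 such pairs of listed members, and in 3 of them the 95% intervals do not overlap. SCARNA5 exceeded SCARNA6, both within ATG16L1, by 1.17 ± 0.38 on the log2 scale, the error being the combined standard error of values treated as independent. SNORA74A exceeded SNORA74D, both within SNHG4 and within an annotated transcript of MATR3, by 1.49 ± 0.52. Within KANSL2, SNORA2A was 3.98 ± 1.38 lower than SNORA2C on that scale (difference -3.98), and SNORA2B overlapped both, at 2.45 ± 1.04 per the authors' deposited table. The size of this difference is poorly determined: SNORA2C had a derived level of 0.545 in V, and 29.5% of its windows also occur in MIR1291. SNORA2A had a listed adjusted p of 0.0494. The SNORA2 RNAs are 74.1 to 76.1% identical with no identical run above 18 bases.

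The host genes named for their snoRNAs that were listed were all higher in C. Of 26 SNHG and GAS5 genes in the release, 4 were listed per the authors' deposited table (15.4%, against 10.1% of all genes of the release), and all 4 were called and higher in C. The share called and higher in C was 46.0% over all listed genes and 60.1% over those that are not protein-coding. SNHG16 had derived levels of 1614 in C and 611 in V (1.40 ± 0.08, adjusted p = 5.07e-74), SNHG3 had 857 in C and 360 in V (1.25 ± 0.08, adjusted p = 8.85e-53) and SNHG4 had 431 in C and 147 in V (1.55 ± 0.10, adjusted p = 1.55e-55), as derived from the authors' deposited table. SNHG26, the host of SNORD93, had 93.7 in C and 17.0 in V (2.47 ± 0.27, adjusted p = 3.27e-18, per the authors' deposited table). These are long noncoding RNAs whose introns carry the snoRNAs and whose spliced remainder has a poly(A) tail.

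The listed members and the listed SNHG genes overlapped in part. Of 8 members annotated within the 4 listed SNHG genes, 4 were listed: SNORA73B, SNORA74A, SNORA74D and SNORD93. SNORD1A, SNORD1B and SNORD1C, all within SNHG16, were not listed, nor was SNORA73A. The 22 SNHG and GAS5 genes that were not listed contain 116 annotated members, of which 2 were listed, SNORA71B within SNHG17 (2.30 ± 0.41) and SNORD109B within SNHG14, per the authors' deposited table. GAS5 itself was not listed. The release places no gene with a SNORD, SNORA or SCARNA symbol within it, which does not show that GAS5 hosts no snoRNA. The count of annotated members is therefore limited to those symbols.

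Transcript length moved with whether a member was listed. The median length was 137 bases for the 11 listed box C/D RNAs, against 82.0 for the 267 annotated ones that were not listed. Of annotated box C/D RNAs, 5 of 246 under 100 bases were listed (2.03%), 2 of 20 from 100 to 149 bases (10.0%) and 4 of 12 of 150 bases or more (33.3%). The short ones include the many copies of SNORD113, SNORD114, SNORD115 and SNORD116, none of which was listed. SNHG14 alone contains 83 annotated members, of which 1 was listed. Length and the make-up of the annotated class therefore cannot be told apart in these shares and medians. Among box H/ACA RNAs the medians were close, 135 listed and 133 not listed, with 30 of 133 listed from 100 to 149 bases (22.6%) and 4 of 13 above that (30.8%). SNORA74C-2, of 201 bases in the release, counts here as not listed because its identifiers differ. For Cajal body RNAs the median was 265 bases listed and 138 not listed. The part that RNA length played in library preparation or in counting was not tested.

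**Figure D5:**
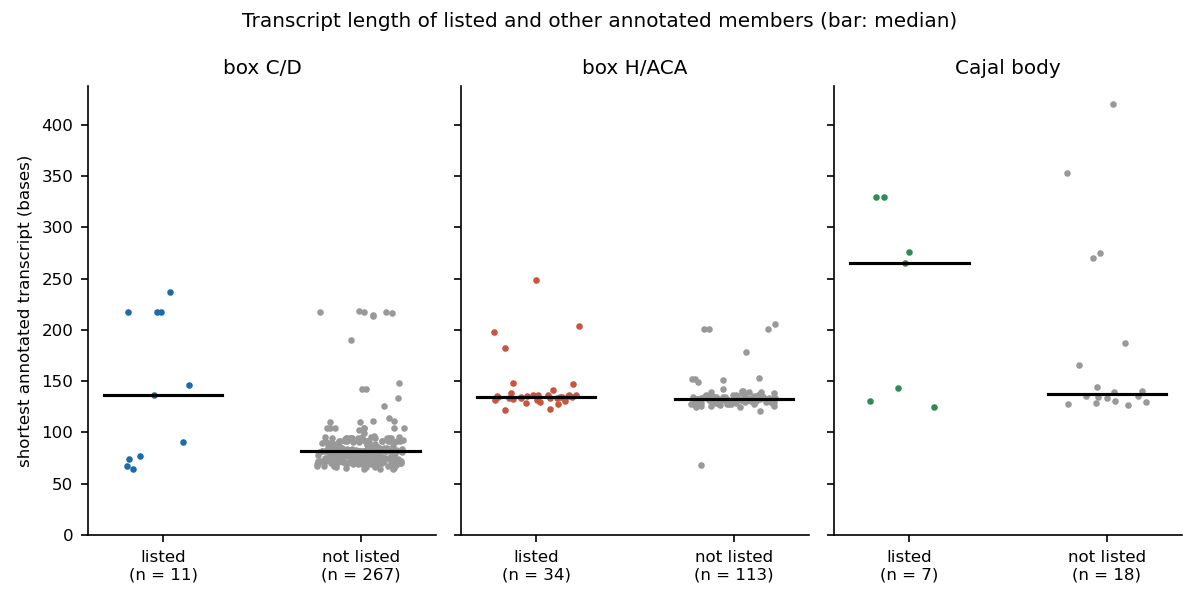
Length in bases (y axis) of the shortest annotated transcript of each listed member (left, coloured) and each annotated member that was not listed (right, grey), by class, with the median as a bar. The listed box C/D RNAs have a median of 137 bases, against 82.0 for those not listed, while the box H/ACA medians are 135 and 133.

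Of 36 proteins that bind, assemble or act with these RNAs, 3 were listed (8.33%, against 14.8% of protein-coding genes of the release). None of the 4 box C/D core proteins (FBL, NOP56, NOP58 and SNU13), none of the 4 box H/ACA core proteins (DKC1, NOP10, NHP2 and GAR1) and none of 8 proteins that process 18S ribosomal RNA with U3 were listed. Of 10 assembly factors 2 were listed, both higher in C per the authors' deposited table: the ATPase RUVBL1 (1.4998 ± 0.08, adjusted p = 2.21e-72) and NOPCHAP1, listed under its older symbol C12orf45 (1.99 ± 0.11, adjusted p = 5.01e-74). Of 10 genes for Cajal body and scaRNA handling, TCOF1 alone was listed, at derived levels of 1825 in C and 418 in V (2.12 ± 0.08, adjusted p = 8.36e-142, per the authors' deposited table); it encodes treacle, a nucleolar protein of ribosomal RNA synthesis. Telomerase RNA, which is itself a box H/ACA RNA, was not listed, and its partner TERT was higher in C (2.81 ± 0.23, adjusted p = 8.4e-32, per the authors' deposited table).

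Other RNAs without a poly(A) tail were listed on both sides, which is given here beside the members since the kits differ in whether they select for that tail. Of 50 listed histone genes, by symbol prefix and including a few variants and pseudogenes, 49 were called and 48 were called higher in C (median log2 fold change 2.08). Of 33 listed genes with the small nuclear RNA prefix RNU, 26 were called and 23 called higher in C (median 3.64), per the authors' deposited table. Most of these 26 have a symbol ending in P, for pseudogene, as have the 3 higher in V. Many of the pseudogenes had a mean under 10, such as RNU2-61P (1.58). Over all listed genes 46.0% were called and higher in C and 43.4% were called and higher in V. The share called and higher in C was 60.1% among types that are not protein-coding and 31.6% among protein-coding genes. Of 13 other small RNAs, the Y RNAs RNY3 (-5.01 ± 1.41, adjusted p = 0.00129) and RNY4 (-4.08 ± 1.73, adjusted p = 0.0424) were listed, both higher in V per the authors' deposited table, at derived levels of at most 11.3. Of the members, 6 overlap a gene on the opposite strand; whether reads were counted by strand is not given in the sources used here, and FAM69A, opposite SNORA66 (3.18 ± 0.86), was higher in V (-2.64 ± 0.19, adjusted p = 3.46e-43) per the authors' deposited table.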

How the data were processed

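RNA libraries of 2 cell lines were read as 50 bp single ends, per the labels' protocols. The submitters' processing notes name FastQC and Cufflinks 2.2.1 but no role for either. For the aligner, counter and genome build nothing is given in the sources used here. A single table was used, the authors' DESeq2 comparison of C with V, per the file headers. Its mean of normalised counts is a signal value computed by the authors, per the file headers. Its log2 fold change (C over V) was estimated by the authors by maximum likelihood, per the file headers. Standard error and Wald statistic stand as score columns that the authors deposited. Each p-value and its Benjamini-Hochberg adjusted form were likewise deposited by the authors.

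No test across libraries was run, since the table has no column per library. Members and lists were chosen with earlier results of these data known. Genes were called at a listed adjusted p under 0.05; 4 genes with an adjusted p of 0 beside a p above 0 were taken as not called. Derived levels solve for C and V from the listed mean (their average) and the listed fold (their ratio); the computation was tested on simulated data. Positions, gene types, hosts (genes that contain a member on the same strand) and sequences were taken from GENCODE release 29 (GRCh38). That release contains 5935 of the 6018 identifiers, 52 of the 53 members among them, and may differ from the authors' annotation. Identity came from global alignment with Biopython 1.88, and shared 50-base windows from an exact search of all transcripts of the release; tables were handled with Python 3.11.15 and pandas 2.3.3. Values were given for the 6 called members of each class with the smallest p and the 6 with the highest level, members not called, listed SNHG genes and listed genes of the protein lists. Other genes named in the text, such as those with the largest or smallest fold changes, shared hosts or near-identical copies, were chosen after their values were seen. Alternatives changed the p threshold, the fold, the minimum mean and the class rule.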

Additional observations from a re-analysis of the deposited data

How the results depend on the processing

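Every listed member and SNHG gene has a positive fold change, so no filter on them could give a call in V or a reversed direction. Leaving out the counts in V, 55 of 75 alternative values over 10 results stayed within 1.5 times a count or within the median standard error for a median. Requiring a 95% interval beyond 1 left 27 called members higher in C, of which 3 were box C/D and 19 box H/ACA, with a box C/D median log2 fold change of 4.00. A mean of at least 100 left 9 members, of which 4 were box C/D, 2 box H/ACA (median 3.77) and 3 Cajal body RNAs. Where log2 fold changes had to reach 2 in size, 6 box C/D RNAs (median 3.84) and 1 SNHG gene were left. An adjusted p under 0.01 left 4 Cajal body RNAs and a box C/D median of 1.90. A mean of at least 10, and likewise a lower level of at least 1, left 4 Cajal body RNAs and a box C/D median of 1.71. Weighting gave a Cajal body mean of 2.53. Choosing members by annotated type gave 1 called higher in V. Without the U3 copies, an alternative chosen after seeing the data, the box C/D median was 3.21. The box C/D median therefore moves between 1.71 and 4.00 with the filter, since it rests on 10 genes of unequal depth. No paired analysis was possible because the table holds no value for a single library, and for the same reason no library could be left out and no other normalisation or test could be run.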

Other observations

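The authors' deposited table also lists 7 genes that GENCODE release 29 types as snoRNA but whose symbol does not start with SNORD, SNORA or SCARNA; they were looked at after the members' values were known. Of these, 5 were called per the authors' deposited table: 4 had more in C, and 1 had more in V. Over all listed genes 89.4% were called, with 46.0% called and higher in C and 43.4% called and higher in V. Among types that are not protein-coding 60.1% were called and higher in C. The one higher in V is listed as U3 and is a U3 copy inside TEX14 on chromosome 17 (chr17:58631641-58631836, minus strand, GRCh38), with derived levels of 6.55 in C and 27.3 in V and a log2 fold change of -2.06 ± 0.51 (adjusted p = 0.00023, in the authors' deposited table). Another gene listed as U3, inside EDA on chromosome X, was higher in C (4.21 ± 1.70, adjusted p = 0.0319, in the authors' deposited table), with derived levels of 3.08 in C and 0.167 in V. Both lie far below SNORD3A in level.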
